A study of Mus musculus with 14 samples.

Results

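The Notch genes described here were 10: the receptor genes Notch1, Notch2 and Notch3, the DNA-binding effector gene Rbpj, the ligand genes Dll1 and Jag1, and the target genes Hes1, Hey1, Heyl and Hey2. They were taken by gene symbol from 2 tables of read counts per gene, in which all 10 were found among 49671 genes each. Levels are CPM, read counts scaled to a common library size that is corrected for composition by the TMM method.

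RNA of freshly isolated satellite cells, the muscle stem cells, from resting limb and pectoral muscle of C57BL/6J mice was sequenced in 14 libraries of 1000 cells. The sort took B1-Integrin+, CXCR4+ cells without CD45, CD31 or CD11b and without Ter119 or Sca1 on their surface. In 1 dataset, 4 libraries of FosGFP+ and 4 of FosGFP- cells came from FosGFP mice of 4 months, 4 mice by the series text. In the other, 3 libraries labelled FoscKO (Fos deleted conditionally) and 3 labelled Control came from mice of 6 months, 3 mice by the series text. For both arms of that dataset the series text names a FosGFP+ gate, which may be a slip. The labels give neither the Cre driver, nor the deleted part of Fos, nor the mouse behind a library, so p-values measure the spread between libraries, which may be technical. Both datasets were fitted apart.

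Notch receptors are cut when a ligand on a neighbouring cell binds them, and the freed intracellular domain enters the nucleus and joins RBPJ and Mastermind proteins to switch on genes of the HES and HEY families of basic helix-loop-helix repressors. Without Notch, RBPJ holds corepressors at the same sites. In satellite cells this signalling is known to keep the cells quiescent, and loss of Rbpj or of both Hey1 and Heyl in mice depletes the pool. Fos encodes a subunit of AP-1, a transcription factor induced within minutes of many stimuli, including the isolation of cells from tissue.

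RefSeq promoter windows, 250 bases before to 50 after an annotated start, were at hand for 7 of the 10 members in 9 windows (Notch1, Notch2, Notch3, Jag1, Hey2 and, with 2 starts each, Rbpj and Dll1). Both strands were searched for the short RBPJ core TGGGAA, for the long RBPJ core GTGGGAA, which contains the short one, for the E-box CACGTG that HEY proteins bind, and for the AP-1 site TGANTCA. The short core stood in 3 of the 9 windows and in 25.6% of 32851 mouse promoter windows of the same length, and the long core in 1 of 9 and in 6.38%. The E-box stood in 0 of 9 and in 7.15%, and the AP-1 site in 1 of 9 and in 7.81%. The 2 windows of Rbpj overlap, and the single short core of the second is also in the first, so that the 3 windows belong to 2 genes. A match is a description of the letters, not a site of binding.

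The windows that follow (GRCm38.p6, 5′ to 3′ on the gene's strand) are shown because they hold the matches in 3 genes of different role, with each match in capitals. That of Rbpj (chr5:53590096-53590395, plus strand) has the short core from base -149 forward and from base -65 in reverse, counted from the start. That of Hey2 (chr10:30842734-30843033, minus strand) has the long core from base -4 forward and from base -207 in reverse. That of Dll1 (chr17:15376883-15377182, minus strand) has an AP-1 site from base -109.
Rbpj: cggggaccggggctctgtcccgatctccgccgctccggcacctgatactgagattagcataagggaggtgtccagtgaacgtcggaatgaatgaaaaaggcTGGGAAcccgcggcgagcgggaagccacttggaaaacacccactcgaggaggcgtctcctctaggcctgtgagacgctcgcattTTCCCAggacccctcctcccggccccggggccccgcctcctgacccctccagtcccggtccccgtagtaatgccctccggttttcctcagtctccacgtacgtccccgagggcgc
Hey2: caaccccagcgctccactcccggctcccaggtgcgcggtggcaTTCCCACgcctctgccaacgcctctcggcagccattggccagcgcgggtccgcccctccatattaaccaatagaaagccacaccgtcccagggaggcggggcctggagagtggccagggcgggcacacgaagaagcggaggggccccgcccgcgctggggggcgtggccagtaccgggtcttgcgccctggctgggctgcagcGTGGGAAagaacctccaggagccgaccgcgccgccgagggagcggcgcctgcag
Dll1: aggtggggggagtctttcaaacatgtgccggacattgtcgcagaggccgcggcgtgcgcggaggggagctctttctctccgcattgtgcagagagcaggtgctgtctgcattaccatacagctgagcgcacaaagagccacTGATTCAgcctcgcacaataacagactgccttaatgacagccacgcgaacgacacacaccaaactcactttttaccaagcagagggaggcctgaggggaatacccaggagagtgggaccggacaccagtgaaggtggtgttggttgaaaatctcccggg

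Counts in genes ran from 3806776 to 5983711 per library in FosGFP+, 2652230 to 4067543 in FosGFP-, 4797954 to 10241655 in FoscKO and 5326686 to 6930696 in Control. Of all alignments counted, those assigned to no gene included, 19.7% ± 2.62 fell in genes in FosGFP+ and 12.9% ± 1.74 in FosGFP- (SD, n = 4 each, exact permutation p = 0.029, the smallest possible). In the other dataset 22.9% ± 7.16 did so in FoscKO and 18.2% ± 1.15 in Control (SD, n = 3 each, exact permutation p = 0.4, smallest possible 0.1). An even background of reads was estimated on 1482 chemosensory receptor genes, which were assumed to be silent in these cells. That assumption was not tested. The background equalled 8.80% ± 1.79 (FosGFP+) and 15.6% ± 2.76 (FosGFP-) of what was counted in genes (SD, n = 4 each). FosGFP- replicate 4 had the largest background, at 19.5%. Fos itself was lower in the libraries labelled FosGFP+, with 5243, 5398, 3098 and 4606 CPM, against 12883, 11592, 7908 and 11302 CPM in those labelled FosGFP- (log2 fold change -1.25 ± 0.21 SE, adjusted p = 9.33e-04 by edgeR's quasi-likelihood test with Benjamini-Hochberg adjustment). In the libraries labelled FoscKO it had 8442, 2876 and 3804 CPM, against 5044, 5025 and 4733 CPM in Control (0.03 ± 0.39, adjusted p = 0.996). Counts over the whole gene do not check a deletion whose extent is not given, so both pairs of names below are names of labels.

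All 12 satellite cell markers were detected in every group. Of them, 5 were called higher in FosGFP+ and 0 lower, against 10.3% and 1.85% of all genes. With total counts 4 were higher and 4 lower, against 4.86% and 10.8% of all genes. Their summed level was 11835 to 15480 CPM in FosGFP+ and 6117 to 9097 CPM in FosGFP-, and 8314 to 14606 CPM in FoscKO and 8271 to 11919 CPM in Control. Endothelial and mural cells also use Notch genes. The 14 endothelial markers summed to 230.2 to 299 CPM in FosGFP+ and 301 to 411 CPM in FosGFP-, and to 239 to 299 CPM in FoscKO and 212 to 278 CPM in Control. Tek, the highest of them, ran from 106 to 134 CPM in FosGFP+ and from 75.0 to 152 CPM in FosGFP-. Of their defining genes, Pecam1 ran from 13.0 to 21.6 CPM in FosGFP+ and from 20.9 to 24.7 CPM in FosGFP-, and Cdh5 from 3.27 to 4.77 and from 5.46 to 7.13 CPM. At levels this low the even background, which was larger in FosGFP-, is part of the counts. Its part in each gene was not tested, and the fit of this list with the background subtracted is given below. The 12 smooth muscle and pericyte markers summed to 245 to 360.3 CPM in FosGFP+ and 210.3 to 495 CPM in FosGFP-, and to 464 to 1160.0 CPM in FoscKO and 267 to 569 CPM in Control, and Acta2, an actin gene of smooth muscle, alone ran from 318 to 951 CPM in FoscKO and from 148 to 426 CPM in Control. Ndufa4l2 alone of these markers was at 0 in FosGFP+ and in FoscKO. Of the endothelial markers 1 of 11 tested was called lower in FosGFP+ and 0 higher, against 1.85% of all genes lower. All 11 were below 0 (median -0.62, that of all genes -0.18). With total counts 4 were called lower, against 10.8% of all genes, and with TMM from genes of at least 50 CPM 9, against 25.4%. With the background subtracted 8 were tested and 1 was called lower, against 1.63% of all genes. All 8 were then below 0 (median -0.80, that of all genes -0.17). Also called lower by the edgeR fit with TMM were 1 of 9 of the mural markers and 1 of 11 of the fibro-adipogenic markers. The latter summed to 3886 to 5149 CPM in FosGFP+ and 2406 to 5165 CPM in FosGFP-, and to 5383 to 10084 CPM in FoscKO and 6133 to 7734 CPM in Control. Most of these sums came from Gsn and Col3a1, which averaged 1858 and 2018 CPM in FosGFP+, 1665 and 1641 CPM in FosGFP-, 4088 and 3952 CPM in FoscKO, and 3263 and 3214 CPM in Control. The leukocyte and Schwann cell lists had 0 called members (1 and 2 lower in FosGFP+ with total counts), with sums of up to 142 and 311 CPM in the libraries of the first dataset and up to 87.2 and 558 CPM in those of the second. Most of the Schwann cell sums came from Pmp22, with up to 263 CPM in FosGFP- and up to 538 CPM in FoscKO. The 10 mature fibre markers summed to 713 to 1508 CPM in FosGFP+ and 728 to 982 CPM in FosGFP-, and to 541 to 1773 CPM in FoscKO and 1540 to 3329 CPM in Control. None of them was called in either comparison by the edgeR fit with TMM, but all 10 were below 0 in FoscKO over Control (median -1.23, that of all genes -0.04). There, 2 were called lower with total counts, with TMM from genes of at least 50 CPM and by DESeq2, and 1 with the background subtracted. DESeq2 called 0.343% of all genes in either direction there. The numbers of all genes called under the other settings are given near the end. The part of such cells in the values below was not tested, and in bulk RNA fewer cells with a transcript cannot be told apart from less of it per cell.

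Between FosGFP+ and FosGFP- cells, the Notch genes moved in both directions with TMM over all genes, but the calls of higher genes depended on the scaling. Hes1, the best known direct target, was 10.5 times lower in FosGFP+ cells and Dll1 was lower by 1.20 on the log2 scale, while Rbpj and Jag1 were higher by 1.01 and 1.03. The 3 receptor genes and Hey1, Heyl and Hey2 did not pass the test. Thus 2 of the 10 members were higher and 2 lower, against 10.3% higher and 1.85% lower of 20698 genes tested (12.1% in either direction, 2508 genes). All 10 members passed the filter on low counts. Their median log2 fold change was -0.34 and that of all genes -0.18. Rbpj and Jag1 stayed above 0 under every scaling tried. Neither was called higher when total counts set the library sizes or when the background was subtracted. The same held when TMM was limited to well-expressed genes (50 CPM or more). With 1 library left out, Hes1 was called in 8 of 8 fits, Rbpj in 7, and Jag1 and Dll1 in 3 each.

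**Figure D1:**
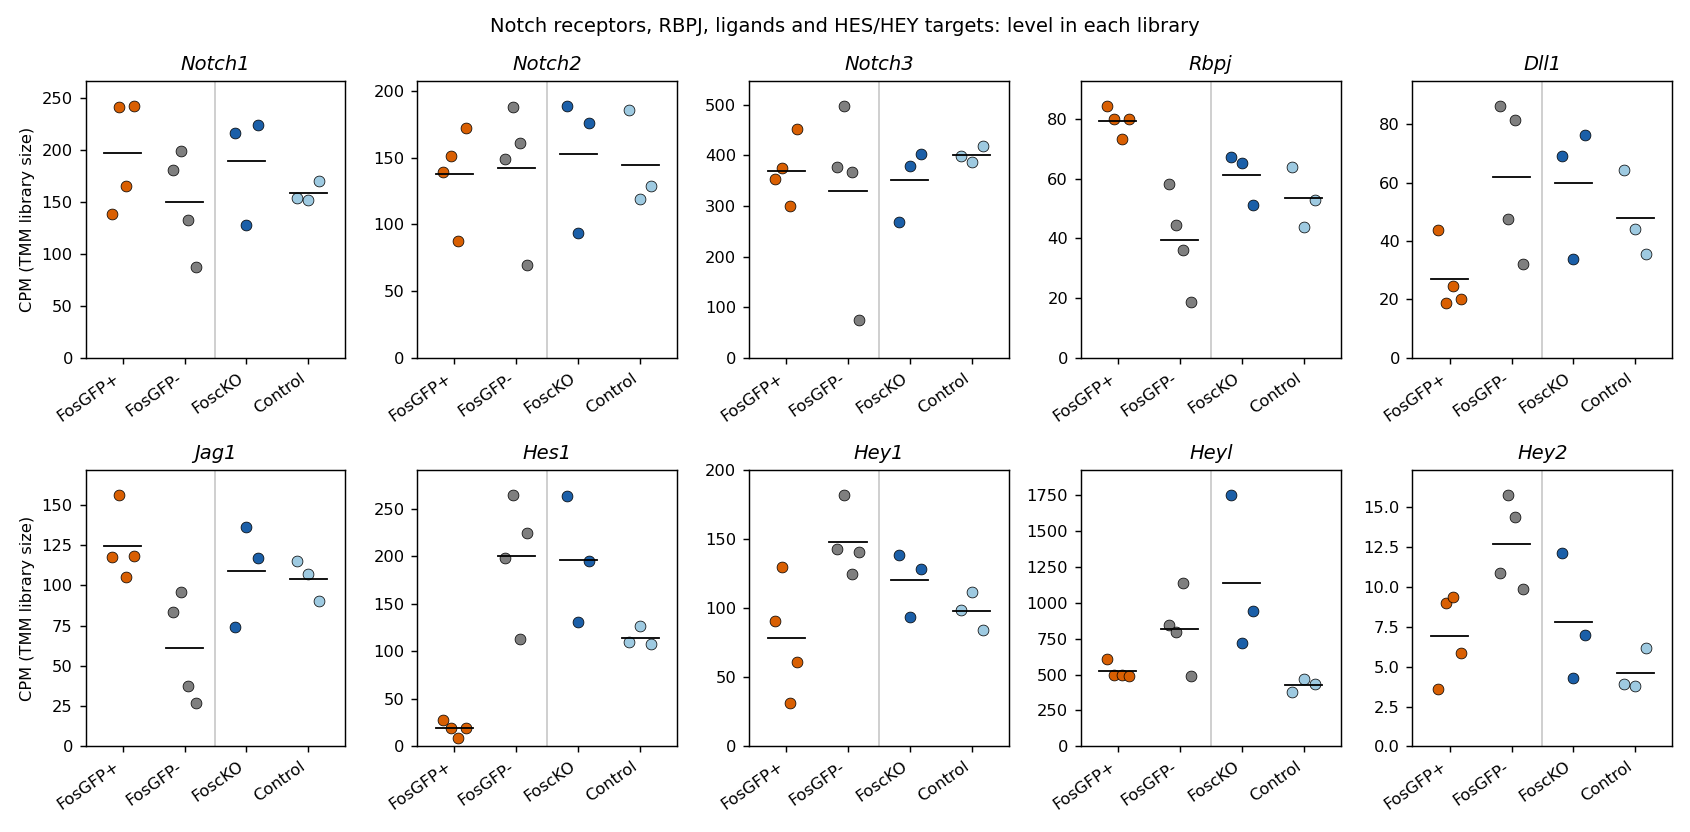
Level of the 10 Notch genes in each library (vertical axis, CPM on the TMM library size, from 0). Points are libraries, bars are group means, and a grey line parts the datasets. Hes1 lies at 9.10 to 27.6 CPM in FosGFP+ and 112 to 264 CPM in FosGFP-, and Heyl at 717 to 1751 CPM in FoscKO and 379 to 466 CPM in Control.

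Of the receptors, Notch3 gave 354, 374, 299.5 and 453 CPM in FosGFP+ and 377, 497, 368 and 74.7 CPM in FosGFP- libraries 1 to 4. Notch1 gave 138, 241, 165 and 242 CPM in FosGFP+ and 180.2, 199, 132 and 87.5 CPM in FosGFP-, and Notch2 139, 151, 87.9 and 172 CPM in FosGFP+ and 149, 188, 161 and 69.9 CPM in FosGFP-. The groups overlapped for each receptor, and FosGFP- replicate 4 was the lowest of its group for all 3. The log2 fold changes were 0.39 ± 0.25 (SE) for Notch1, -0.05 ± 0.27 for Notch2 and 0.17 ± 0.37 for Notch3, with adjusted p = 0.341, 0.929 and 0.794 by edgeR's quasi-likelihood test with Benjamini-Hochberg adjustment. Without FosGFP- replicate 4, the value for Notch3 was -0.15. An opposite-strand or overlapping gene covers 7.5% and 2.91% of the exonic bases of Notch1 (0610009E02Rik and Gm13568), 5.02% of Notch2 (Gm42820) and 6.03% of Notch3 (Gm17276), and the kit does not keep the strand.

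Rbpj, whose protein carries the Notch signal on DNA and represses the same sites without it, had 84.4, 80.0, 73.4 and 80.1 CPM in FosGFP+ libraries and 58.1, 44.5, 36.2 and 18.5 CPM in FosGFP- libraries. The FosGFP+ libraries lay within a narrow range, all above FosGFP-, of which replicate 4 was the lowest. The log2 fold change was 1.01 ± 0.27 (SE), adjusted p = 0.0214 by edgeR's quasi-likelihood test with Benjamini-Hochberg adjustment. For a gene of 12750 exonic bases at this level the even background matters: it equalled 10.3% to 16.2% of the Rbpj counts in FosGFP+ and 20.9% to 85.6% in FosGFP-. With that background subtracted the fold change was 1.24, and the call was lost (adjusted p = 0.15). The call was also lost with library sizes from total counts (0.63, adjusted p = 0.0784), with TMM from genes of at least 50 CPM (0.45, adjusted p = 0.149) and without FosGFP- replicate 3 (0.98, adjusted p = 0.0555). Reads shared with processed pseudogene copies could escape counting; Rbpj-ps1 and Rbpj-ps3 had at most 9 counts in any library.

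The ligand genes went opposite ways. Jag1, a Serrate-type ligand, had 118, 156, 105 and 118 CPM in FosGFP+ libraries and 83.3, 96.2, 37.4 and 26.9 CPM in FosGFP- libraries. Every FosGFP+ library lay above every FosGFP- library, replicates 3 and 4 of FosGFP- being far below the other two. The log2 fold change was 1.03 ± 0.32 (SE), adjusted p = 0.047 by edgeR's quasi-likelihood test with Benjamini-Hochberg adjustment, just inside the threshold of 0.05. It was not called with total counts (0.65, adjusted p = 0.108), TMM from genes of at least 50 CPM (0.46, adjusted p = 0.193) or background subtraction (0.91, adjusted p = 0.159), nor when FosGFP+ replicate 1, 2 or 4 was left out, nor FosGFP- replicate 3 or 4 (adjusted p from 0.0531 to 0.128).

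Dll1, a Delta-type ligand that in mouse muscle is made by differentiating myogenic cells, had 43.8, 18.8, 24.7 and 20.3 CPM in FosGFP+ libraries and 86.2, 47.7, 81.4 and 32.0 CPM in FosGFP- libraries. FosGFP+ replicate 1 lay above FosGFP- replicate 4, so the groups overlapped, and the other FosGFP+ libraries lay below all of FosGFP-. The log2 fold change was -1.20 ± 0.33 (SE), adjusted p = 0.0253 by edgeR's quasi-likelihood test with Benjamini-Hochberg adjustment. It was called under each of the 9 other scalings, filters and tests (-1.75 to -1.12), but not when FosGFP+ replicate 2, 3 or 4 was left out, nor FosGFP- replicate 1 or 3 (adjusted p from 0.0655 to 0.0967). The opposite-strand gene A930024N18Rik, at 2.30 to 3.98 CPM in FosGFP+ and 2.30 to 9.56 CPM in FosGFP-, overlaps 20.55% of the exonic bases of Dll1, and reads of that stretch cannot be told apart.

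Hes1 had 27.6, 19.0, 9.10 and 19.8 CPM in FosGFP+ libraries, against 198, 264, 112 and 224 CPM in FosGFP- libraries. The highest FosGFP+ library was far below the lowest FosGFP- library. The log2 fold change was -3.39 ± 0.32 (SE), adjusted p = 3.29e-05 by edgeR's quasi-likelihood test with Benjamini-Hochberg adjustment, from 32 to 116 counts per library in FosGFP+ and 391 to 921 in FosGFP-. It was called in all 17 other fits of this comparison, from -4.01 to -3.13. The even background came to 6.32% to 20.9% of the Hes1 counts in FosGFP+ and 0.914% to 1.95% in FosGFP-.

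The other 3 target genes were each lower on average in FosGFP+ cells without passing the test. Hey1 had 90.6, 130.1, 31.6 and 60.8 CPM in FosGFP+ libraries and 143, 182, 125 and 141 CPM in FosGFP- libraries, and only FosGFP+ replicate 2 reached the range of FosGFP- (log2 fold change -0.91 ± 0.31 SE, adjusted p = 0.0691 by edgeR's quasi-likelihood test). Without that library Hey1 was called lower (-1.24, adjusted p = 0.0166), as it was in 6 of the 9 alternatives that keep every library, among them the filter at 5 CPM (adjusted p = 0.0364) and limma-voom (adjusted p = 0.0368); over those 9 the adjusted p ran from 0.00308 to 0.178. Heyl, which with Hey1 keeps mouse satellite cells undifferentiated, had 611, 497, 498 and 489 CPM in FosGFP+ libraries and 844, 796, 1140.4 and 487 CPM in FosGFP- libraries. FosGFP- replicate 4 lay level with the FosGFP+ libraries and the rest of FosGFP- above all of them (-0.64 ± 0.22 SE, adjusted p = 0.0693). Without that replicate, Heyl was called lower (-0.82, adjusted p = 0.00522). Hey2, known best from heart and vessels, had 3.57, 8.98, 9.39 and 5.88 CPM in FosGFP+ libraries and 10.9, 15.8, 14.4 and 9.86 CPM in FosGFP- libraries, with no overlap (-0.87 ± 0.38 SE, adjusted p = 0.153). The even background equalled 33.1% to 110.2% of the Hey2 counts in FosGFP+ and 34.4% to 58.0% in FosGFP-, so that its transcript was at or little above background. Counting Rbpj, Jag1, Hes1 and Hey2, 4 of the 10 members had no overlap between the groups, 2 in each direction, against 19.3% of all genes tested (12.9% higher and 6.45% lower in FosGFP+).

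**Figure D2:**
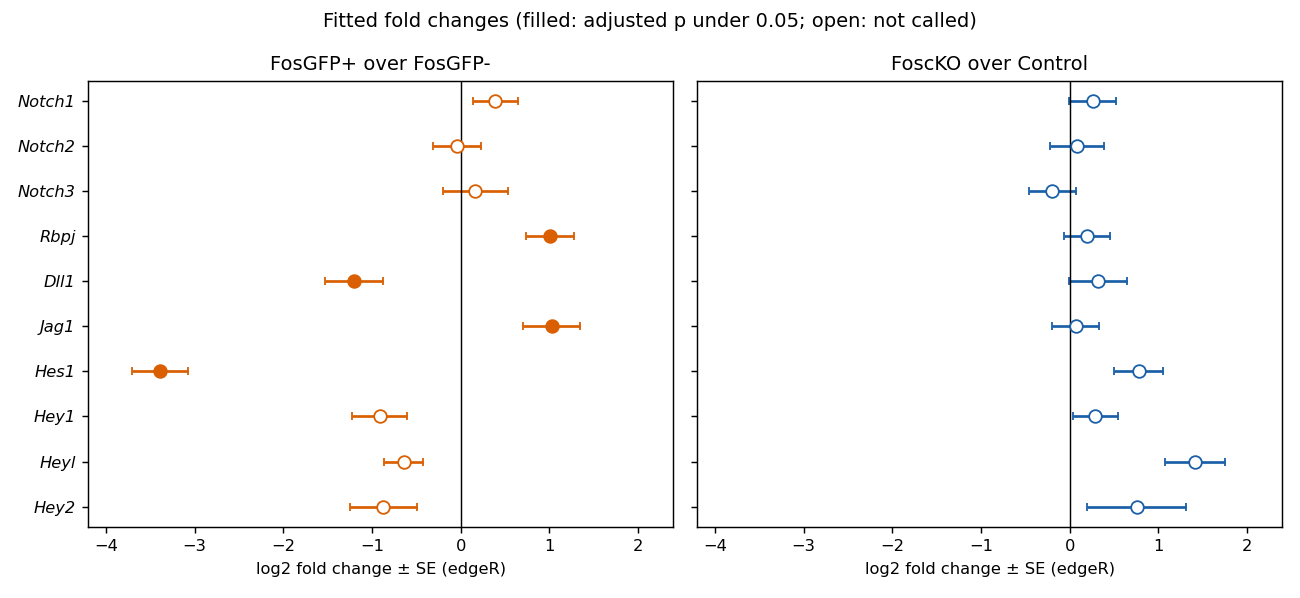
Log2 fold change of each Notch gene with its SE (horizontal axis), FosGFP+ over FosGFP- on the left and FoscKO over Control on the right. Filled points passed an adjusted p of 0.05; 4 genes did so on the left, with Hes1 at -3.39, and 0 on the right, where Heyl was at 1.41 and Hes1 at 0.78.

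The fold changes of this comparison depended on the scaling. The median gene shifted by -0.40 with total counts, by -0.58 with TMM from genes of at least 50 CPM and by -0.19 with the background subtracted, against 0.04 with DESeq2 size factors. Subtracting the background did not move all genes one way, since Rbpj stood at 1.24 with it and at 1.01 without it, and Dll1 at -1.50 with it and at -1.20 without it. With total counts, 4.86% of genes were called higher and 10.8% lower, and of the members 0 higher and 5 lower, namely Dll1, Hes1, Hey1, Heyl and Hey2. TMM from genes of at least 50 CPM called 3.49% of genes higher and 25.4% lower, and 0 members higher and 6 lower, the sixth being Notch2 (-0.61, adjusted p = 0.0468). With the background subtracted 8.39% of genes were called higher and 1.63% lower, and 0 members higher and 4 lower, Dll1, Hes1, Hey1 and Heyl. Hes1 and Dll1 were thus called lower under all 5 scalings, and Rbpj and Jag1 were above 0 in all 5 but called higher only with TMM over all genes and with DESeq2 size factors.

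**Figure D3:**
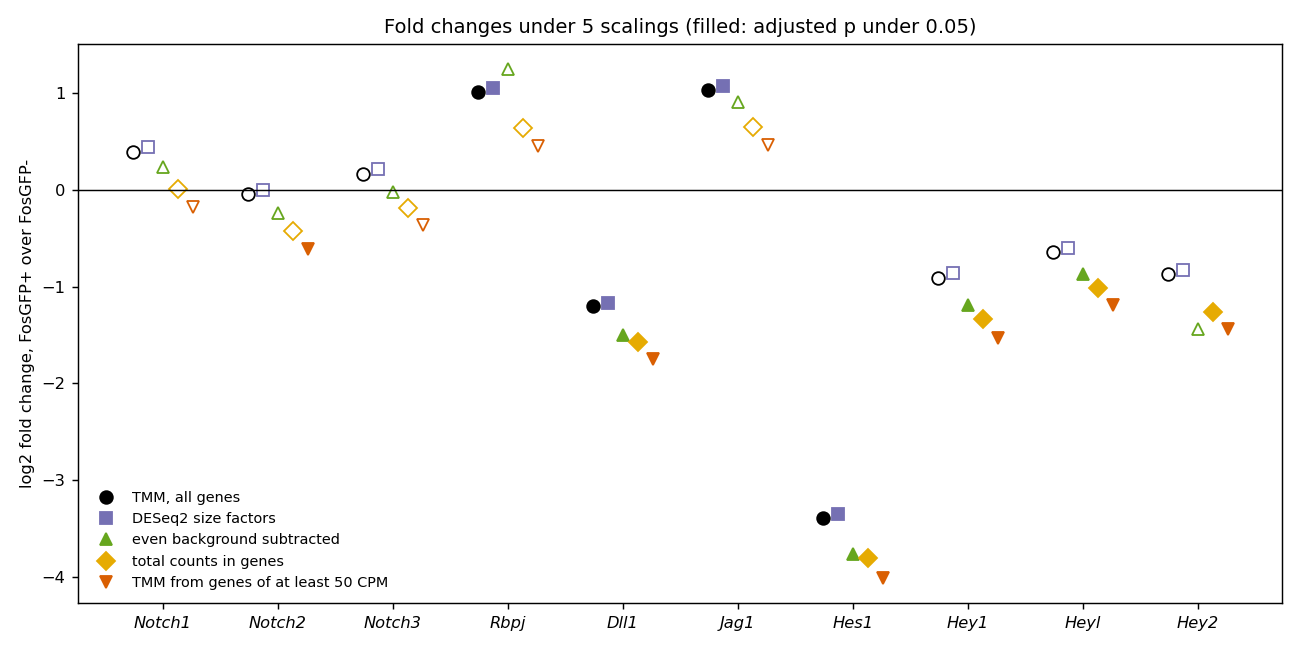
Log2 fold change of each Notch gene, FosGFP+ over FosGFP- (vertical axis), under 5 ways of scaling the counts; filled symbols passed an adjusted p of 0.05. Rbpj and Jag1 are filled under TMM over all genes and DESeq2 size factors, Dll1 and Hes1 under all 5.

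Between FoscKO and Control cells, no member passed the test, and neither did any of the 21885 genes tested with edgeR (0%; 1208 genes, or 5.52%, had an unadjusted p under 0.05, and DESeq2 called 69 of 20104, or 0.343%). The largest differences among the members were those of Heyl and Hes1, both higher in FoscKO. The median log2 fold change of the 10 was 0.27 and that of all genes -0.04. In simulated counts of this comparison, 200 genes drawn from those of at least 5 CPM were changed and the rest left unchanged. The test found 146 of 200 genes with a 4-fold change, with 10 false calls, and 10 of 200 with a 2-fold change, with 0 false calls. Most changes of the smaller size were thus missed in that simulation. It does not show what was detectable for genes at the levels of Heyl and Hes1.

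Heyl had 1751, 717 and 941 CPM in FoscKO libraries, against 379, 466 and 437 CPM in Control libraries. Each FoscKO library lay above each Control library, replicate 1 highest. The log2 fold change was 1.41 ± 0.34 (SE), with an unadjusted p of 9.22e-04 and an adjusted p = 0.297 by edgeR's quasi-likelihood test with Benjamini-Hochberg adjustment. DESeq2 called it (1.52, adjusted p = 0.0232, as 0.199% of genes in that direction), as did the edgeR fit with no filter (1.44, adjusted p = 0.0033) and with total counts (1.12, adjusted p = 0.0426); over all alternatives the adjusted p ran from 0.0033 to 1. In the authors' deposited table, which lists 69 genes at an adjusted p under 0.05, Heyl was the single member, with a log2 fold change of 1.27 (SE 0.32, adjusted p = 0.0208) after turning its sign to FoscKO over Control. Without FoscKO replicate 1, whose share of counted alignments in genes was the highest, at 30.2%, the value was 0.96 (adjusted p = 0.0968). Of 11 smooth muscle and pericyte markers tested, 6 were above and 5 below 0 in FoscKO over Control (median 0.00), and the higher sum of that list in FoscKO came mostly from Acta2. The mature fibre markers, given above, were all below 0. The part of either list in the FoscKO values of Heyl, Hes1 and Hes6 was not tested.

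Hes1 had 264, 130.3 and 194 CPM in FoscKO libraries and 109, 126 and 108 CPM in Control libraries. Each FoscKO library lay above each Control library, replicate 2 by little (0.78 ± 0.28 SE, unadjusted p = 0.0145, adjusted p = 0.783 by edgeR's quasi-likelihood test). Heyl and Hes1 were the members with no overlap between the groups, 2 of 10, against 12.2% of all genes in either direction and 5.75% in this one. Hey1 had 138, 93.7 and 128 CPM in FoscKO and 98.7, 112 and 84.2 CPM in Control (0.29 ± 0.25 SE), and Hey2 12.2, 4.29 and 6.97 CPM in FoscKO and 3.93, 3.78 and 6.19 CPM in Control (0.75 ± 0.55), each with overlap. For Hey2 the even background equalled 16.8% to 90.8% of counts in FoscKO and 56.6% to 86.0% in Control.

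The 6 members upstream of the targets had no called difference here. Rbpj had 67.2, 65.2 and 51.1 CPM in FoscKO and 63.9, 43.7 and 52.9 CPM in Control, Dll1 69.1, 33.9 and 76.2 CPM in FoscKO and 64.2, 44.0 and 35.5 CPM in Control, and Jag1 74.1, 136 and 117 CPM in FoscKO and 115, 107 and 90.4 CPM in Control. Notch1 gave 216, 127 and 224 CPM in FoscKO and 153, 152 and 169 CPM in Control, Notch2 189, 93.2 and 176 against 186, 119 and 129 CPM, and Notch3 269, 379 and 403 against 399, 386 and 418 CPM. The groups overlapped for all 6, and the log2 fold changes lay between -0.19 ± 0.26 (Notch3) and 0.32 ± 0.33 (Dll1), with adjusted p from 0.917 to 0.98 by edgeR's quasi-likelihood test. FoscKO replicate 2 was the lowest of its group for Notch1, Notch2 and Dll1 and the highest for Jag1.

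Set side by side, the 4 target genes had log2 fold changes of -3.39 and 0.78 (Hes1), -0.91 and 0.29 (Hey1), -0.64 and 1.41 (Heyl) and -0.87 and 0.75 (Hey2) in FosGFP+ over FosGFP- and in FoscKO over Control. Each was thus below 0 in the first and above 0 in the second comparison, which share no library, and kept those signs in every alternative run, though of these 8 values only that of Hes1 in the first passed the test. The signs were not particular to the targets, since Dll1 had them too (-1.20 and 0.32) and kept them in every alternative. In FoscKO over Control, 9 of the 10 members were above 0 (6 with total counts), and 44 of 58 other pathway genes tested. The share of all genes with these signs was not counted, and much of the Hey2 counts equalled the even background. The difference between both comparisons was not tested.

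Levels of different genes were compared per exonic length, the union of all annotated exons of a gene. The transcripts made in these cells may be shorter, which would place a gene too low, and this was not tested. The even background was left in, and it equalled up to 85.6% of the Rbpj counts in FosGFP- and up to 110.2% of the Hey2 counts in FosGFP+. In CPM per exonic kb, Heyl was the highest of the 10 in every group, at 102 ± 11.5 in FosGFP+, 159.8 ± 52.3 in FosGFP-, 222 ± 106 in FoscKO and 83.6 ± 8.64 in Control (SD), above 97.9% of 20655 genes in FosGFP+ and 98.2% of 21834 in Control. Hey2 was the lowest in every group, from 1.01 ± 0.294 in Control to 2.77 ± 0.611 in FosGFP- (SD). Hes1 came second in FosGFP-, at 98.0 ± 31.6, in FoscKO, at 96.3 ± 32.7, and in Control, at 56.2 ± 4.98, and seventh in FosGFP+, at 9.27 ± 3.73 (SD). In FosGFP+ the order was Heyl, Notch3, Hey1, Jag1, Notch1, Notch2, Hes1, Dll1, Rbpj, Hey2, in which the libraries of neighbours overlapped except between Heyl and Notch3, Jag1 and Notch1, and Rbpj and Hey2. In FosGFP- it was Heyl, Hes1, Hey1, Notch3, Dll1, Notch2, Notch1, Jag1, Rbpj, Hey2, with overlap of all neighbours except Jag1 and Rbpj. In FoscKO it was Heyl, Hes1, Notch3, Hey1, Jag1, Dll1, Notch2, Notch1, Rbpj, Hey2, with overlap from Notch3 to Hey1 and from Jag1 to Notch1. In Control it was Heyl, Hes1, Notch3, Hey1, Jag1, Notch2, Dll1, Notch1, Rbpj, Hey2, with overlap from Jag1 to Notch1 only. Notch3, the receptor also known from mural cells, held the largest share of the receptor level per length in every group, with 63.5% ± 2.71 in FosGFP+, 59.4% ± 11.5 in FosGFP-, 61.3% ± 11.1 in FoscKO and 67.0% ± 2.81 in Control (SD).

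The summed level of the 4 target genes per exonic kb was 137 ± 21.8 in FosGFP+ and 306 ± 39.7 in FosGFP- (SD, n = 4 each), and 357 ± 145 in FoscKO and 171 ± 15.4 in Control (SD, n = 3 each). Its makeup is described and was not tested. The shares add up to the whole, so a lower share of any gene raises the others. Hes1 made up 6.60% ± 1.98 of the sum in FosGFP+ and 32.6% ± 11.4 in FosGFP-, with 3.93% to 8.39% in FosGFP+ libraries and 17.3% to 43.9% in FosGFP- libraries. Heyl made up 75.4% ± 8.31 in FosGFP+ and 51.6% ± 13.7 in FosGFP-, with overlap (65.5% to 85.8% and 38.0% to 69.8%). Hey1 made up 16.8% ± 7.61 in FosGFP+ and 14.9% ± 2.33 in FosGFP-. In the other dataset Hes1 made up 27.4% ± 2.38 in FoscKO and 32.9% ± 0.893 in Control, and Heyl 61.2% ± 4.54 in FoscKO and 48.9% ± 2.50 in Control (SD). These shares do not depend on the library scaling.

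**Figure D4:**
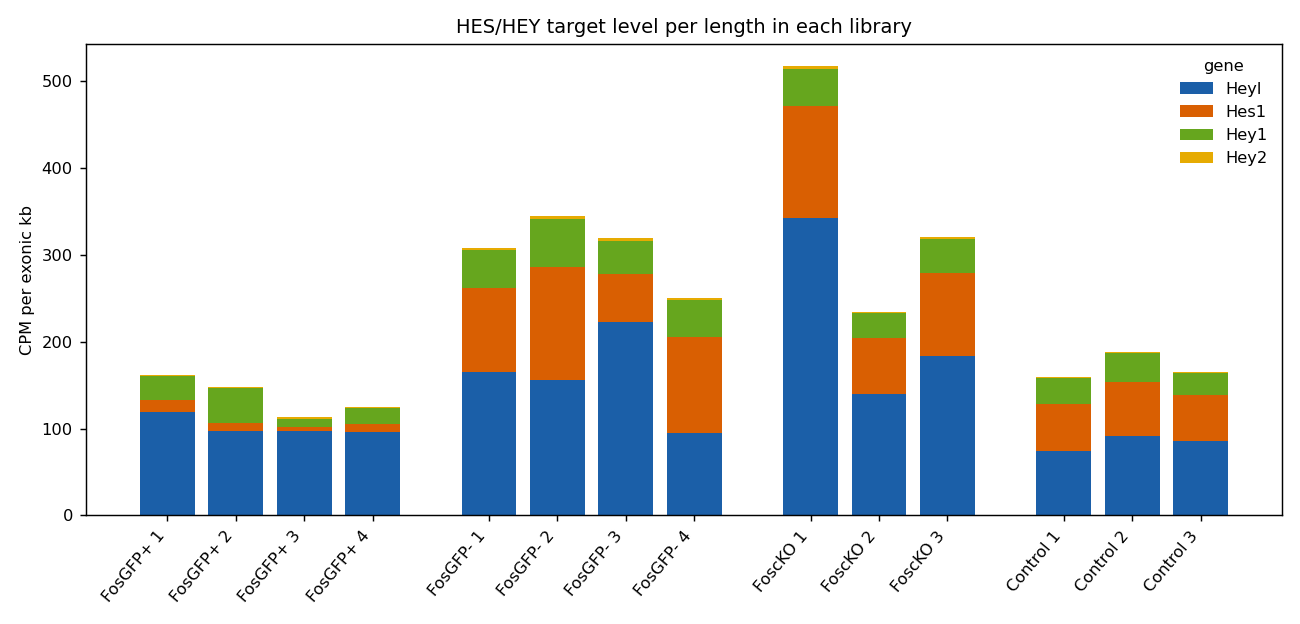
Level of the HES/HEY target genes per exonic length (vertical axis, CPM per exonic kb, from 0), stacked for each of the 14 libraries. The orange part, Hes1, is 3.93% to 8.39% of the bar in FosGFP+ and 17.3% to 43.9% in FosGFP-; FoscKO replicate 1 has the tallest bar, at 517.

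Among 69 other genes of the pathway, 56 passed the filter in the comparison of FosGFP+ with FosGFP-, of which 6 were higher and 2 lower, with a median log2 fold change of 0.23. Among all genes 10.3% were higher and 1.85% lower, so the share called higher was near that of all genes, and the counts by role that follow rest on 1 to 3 genes each. Of these 8, 3 act in the cutting of the receptor, of 9 such genes tested. Furin, which cuts the receptor on its way to the surface, averaged 165 ± 19.7 CPM in FosGFP+ and 62.3 ± 28.9 CPM in FosGFP- (SD, n = 4 each; 1.41 ± 0.29 SE, adjusted p = 0.0044 by edgeR's quasi-likelihood test). Adam17, a surface protease, was higher by 0.77 ± 0.17 and Aph1b, a gamma-secretase subunit, was lower by 0.95 (SE 0.29, adjusted p = 0.0439). The call of Aph1b was lost with no filter (adjusted p = 0.0827), with the replicate block (adjusted p = 0.0615) and in 7 of 8 fits with a library left out, all but that without FosGFP+ replicate 4, where the adjusted p ran up to 0.116. The libraries of both groups did not overlap for any of these 3.

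The second gene that was lower was Hes6, which encodes a HES protein known to oppose HES1, with 12.0 ± 3.68 CPM in FosGFP+ and 39.1 ± 24.4 CPM in FosGFP- (SD, n = 4 each; -1.71 ± 0.37 SE, adjusted p = 0.00627 by edgeR's quasi-likelihood test). It was the single gene tested of 7 in its list of further HES and feedback genes, the rest being under the filter, Hes5 and Nrarp included. Of the corepressors, Ctbp1 (1.00) and Tle4 (1.25, a Groucho-family protein that HES and HEY proteins recruit) were higher, 2 of 14 tested. Of the coactivators, Snw1 (0.80), whose protein SKIP binds RBPJ, was higher, 1 of 7 tested. Dtx2, a Deltex ubiquitin ligase, was higher by 0.92, 1 of 9 tested for receptor turnover. Among 2 other receptors and ligands, 3 glycosylation genes, 5 ligand ubiquitin ligases and 6 collagen and receptor genes reported as RBPJ-bound in satellite cells, 0 passed the test.

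**Figure D5:**
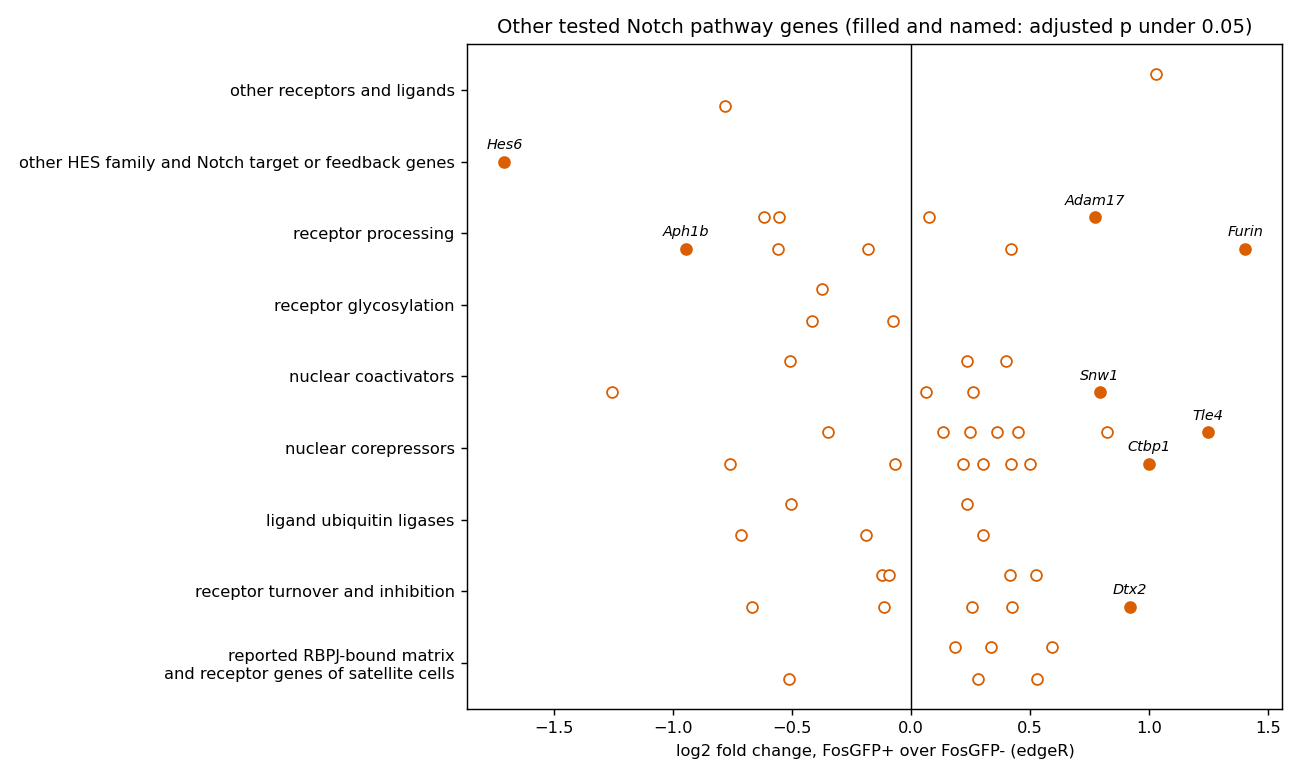
Log2 fold change, FosGFP+ over FosGFP- (horizontal axis), of the 56 tested genes of the Notch pathway beside the 10 members, in rows by role. Filled, named points passed an adjusted p of 0.05, 6 to the right and 2 (Hes6 and Aph1b) to the left of 0; the vertical offset within a row has no meaning.

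Those counts moved with the scaling too. With total counts 3 of 56 were higher and 10 lower, against 4.86% and 10.8% of all genes. With TMM from genes of at least 50 CPM 2 of 56 were higher and 18 lower, against 3.49% and 25.4%. With the background subtracted 52 were tested, 5 higher and 4 lower, against 8.39% and 1.63%. Furin, Tle4 and Hes6 were called in the same direction under all 9 alternatives that keep every library. Adam17, Snw1 and Dtx2 were not called with total counts or with TMM from genes of at least 50 CPM, Ctbp1 not with TMM from genes of at least 50 CPM or with the background subtracted, and Dtx2 not without FosGFP- replicate 2 (0.82, adjusted p = 0.0506). Of the other receptors and ligands, Dlk1 averaged 14.4 ± 21.1 CPM in FosGFP+ and 7.01 ± 4.64 CPM in FosGFP- (SD), and Jag2 5.98 ± 2.42 CPM in FoscKO and 2.05 ± 1.35 CPM in Control (SD, n = 3 each; 1.56 ± 0.69 SE, adjusted p = 0.889 by edgeR's quasi-likelihood test). Between FoscKO and Control, 0 of 58 other pathway genes tested were called, and 44 had a fold change above 0 (median 0.25, that of all genes -0.04). With total counts 31 were above and 27 below 0 (median 0.02, that of all genes -0.21), and with TMM from genes of at least 50 CPM likewise 31 and 27 (median 0.03, that of all genes -0.20). Hes6 averaged 54.0 ± 20.5 CPM in FoscKO and 25.6 ± 4.58 CPM in Control, with no overlap (1.08 ± 0.33 SE, unadjusted p = 0.00524, adjusted p = 0.631).

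The genes whose levels followed each target most closely over the 14 libraries were found by Pearson's r of log2(CPM + 1), each dataset centred on its own mean, among 13698 genes of at least 5 CPM. The groups within a dataset were not centred, so r includes the differences between groups given above and does not measure likeness within a group. The points share libraries and background with each other, and the values are descriptions. For Hes1 they were Ccn1 (0.947), which encodes a matrix protein, Tmem246 (0.945) and the heat shock gene Hspa1a (0.943). For Hey1 they were the pseudogene 3000002C10Rik (0.933), Ldhb (0.906) and the heat shock gene Dnajb1 (0.896), for Heyl Phlda1 (0.944), the repressor gene Bhlhe40 (0.926) and the ubiquitin ligase gene March8 (0.903), and for Hey2 Psmb10 (0.931), Osbpl1a (0.89) and Castor1 (0.884). Of the members, Hes1 was most like Hey1 (0.823) and least like Rbpj (-0.689), and Heyl most like Hey2 (0.671). Ccn1 averaged 1105 ± 156 CPM in FosGFP+ and 2930 ± 581 CPM in FosGFP- (SD, n = 4 each), and Hspa1a 2371 ± 960.4 CPM in FosGFP+ and 8886 ± 1942 CPM in FosGFP-. In FoscKO over Control the log2 fold changes of Ccn1 and Hspa1a were 0.63 and 0.64, each with adjusted p = 0.914 by edgeR's quasi-likelihood test. Bhlhe40 averaged 1334 ± 782 CPM in FoscKO and 373 ± 12.2 CPM in Control (SD, n = 3 each). This did not pass the same test (1.84 ± 0.37 SE, adjusted p = 0.166), nor did Bhlhe40 in FosGFP+ over FosGFP- (-0.30, adjusted p = 0.355).

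In the authors' deposited table of FosGFP+ and FosGFP-, which lists 3422 genes at an adjusted p under 0.05, 4 of the 10 members stood, with signs turned to FosGFP+ over FosGFP-. The authors' deposited table gave Hes1 -3.00 (SE 0.30, adjusted p = 9.12e-21), Dll1 -1.01 (SE 0.32, adjusted p = 0.0136), Rbpj 1.02 (SE 0.28, adjusted p = 0.00322) and Jag1 1.01 (SE 0.32, adjusted p = 0.0132). They are the same 4 genes as in the edgeR fit, from the same libraries.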

How the data were processed

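Raw counts were deposited by the authors as 2 tables, each of 49671 Ensembl genes, plus 5 HTSeq lines naming no gene. Those lines were left out, except from the whole behind the share of counted alignments in genes, given with the results. SMART-Seq v4, which keeps no strand, and Nextera XT were used, per the labels' protocols. Tools named without a role in the submitters' processing notes are HTSeq 0.6.1, STAR 2.5.0c, limma and DESeq2 1.20.0, with the build GRCm38. The authors also deposited tables of their own comparisons with log2 fold changes, p-values and adjusted p-values under 0.05, as reference over test, turned round here. Their 14 columns of per-library values fit no sample label and stayed unused.

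GENCODE M21 (GRCm38), which held 49412 of the IDs, gave gene symbols, coordinates and exonic lengths. In edgeR 4.0.16 (R 4.3.3), genes were filtered by filterByExpr, scaled by TMM and tested by the robust quasi-likelihood F-test, two-sided, with no covariate and Benjamini-Hochberg adjustment over all genes, called under 0.05. Changes are log2 values with their SE. On simulated counts of FosGFP+ and FosGFP- with 20698 genes, 176 of 200 genes with a 4-fold change and 48 of 200 with a 2-fold change were recovered, with 8 false calls in each set. The 200 were drawn from genes of at least 5 CPM and the rest left unchanged, whereas 2508 genes were called in the data. The recovered shares therefore do not give the power of the fit to the data.

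Alternatives were no filter, a mean of at least 5 CPM, DESeq2 size factors, TMM from genes of at least 50 CPM, total counts, an even background subtracted (reads per exonic kb of 1482 olfactory, vomeronasal, taste and trace amine receptor genes times exonic length), DESeq2 1.42.0, limma-voom (limma 3.58.1), the replicate number as a block, and each library left out. The members, gene lists and tests were chosen with earlier results of these data known. Named are all members, Fos, every called gene of the other pathway lists, other receptors or ligands of at least 5 CPM in a group, the 3 genes most like each target, and up to 3 markers per list; Pecam1, Cdh5, Ndufa4l2, Hes5, Nrarp and genes that overlap or copy a member were added after their values were seen. Of the pathway list 69 genes matched a symbol and were used; 1 further gene is not reported here and stays out of the list's counts.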

Additional observations from a re-analysis of the deposited data

Results flagged for a closer look

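In 22 sets of 4 libraries, the level of each member and of Fos within FosGFP+ and within FosGFP-, the gap of the highest or lowest library to its neighbour was set against the range of the set by Dixon's ratio at the 95% critical value. Chance marks about 1 in 20 such sets. One stood apart: Heyl had 611 CPM in FosGFP+ replicate 1, with the other 3 FosGFP+ libraries between 489 and 498 CPM (gap over range 0.924). Without that library the log2 fold change of Heyl, FosGFP+ over FosGFP-, was -0.68 (adjusted p = 0.084 by edgeR's quasi-likelihood test with Benjamini-Hochberg adjustment), against -0.64 with it.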

How the results depend on the processing

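Of 608 recomputed values, 515 kept direction and side of the threshold. Between FosGFP+ and FosGFP-, 5974 genes were called with TMM from genes of at least 50 CPM and 1570 with the background subtracted. Leaving out a library left 1 to 4 of the 10 members called: 1 (Hes1) without FosGFP- replicate 3 and 2 without FosGFP+ replicate 4. Other pathway genes called were 13 of 56 with total counts, where 3248 of all 20698 genes were called. With TMM from genes of at least 50 CPM they were 20 of 56, against 5974 of 20698. Between FoscKO and Control, 131 genes were called with no filter, 32 at 5 CPM or more, 45 with total counts, 43 with TMM from genes of at least 50 CPM, 15 with the background subtracted, 69 by DESeq2 and 6 by limma-voom; leaving out a library gave 0 to 43, the 43 without FoscKO replicate 1. Heyl, 1 member, was called with no filter, total counts and DESeq2.

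No pairing of the libraries by replicate number was seen. Correlations of deviations ran from -0.0059 to 0.0265 and from -0.0479 to 0.216, and 0 of 8 and 2 of 6 libraries correlated best with their own number. With so few libraries this cannot exclude pairs from the same mouse. The replicate block gave 2280 calls in FosGFP+ against FosGFP- and 43 in FoscKO against Control, and Hey1 was called with it (-1.07, adjusted p = 0.0147).

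Values that changed sign, all uncalled, were these, and the cause was not tested. In FosGFP+ over FosGFP-, Notch1 was -0.18 with TMM from genes of at least 50 CPM, Notch2 0.047 with no filter, 0.001 with DESeq2 size factors, 0.053 by DESeq2, 0.007 by limma-voom and -0.26 to 0.17 with a library left out, and Notch3 -0.19 with total counts, -0.37 with TMM from genes of at least 50 CPM, -0.026 with the background subtracted and -0.15 to 0.46 with a library left out. In FoscKO over Control, Notch2 was -0.02 at 5 CPM or more, -0.16 with total counts, -0.15 with TMM from genes of at least 50 CPM, -0.05 with the background subtracted and -0.093 to 0.357 with a library left out; Rbpj was -0.001 with total counts; Jag1 was -0.062 with total counts, -0.056 with TMM from genes of at least 50 CPM, and -0.11 to 0.28 with a library left out. Fos was -0.091 at 5 CPM or more, -0.28 with total counts, -0.27 with TMM from genes of at least 50 CPM, -0.15 with the background subtracted, -0.13 by limma-voom and with the replicate block, and -0.56 to 0.33 with a library left out. Furin was 0.018 with no filter, 0.032 with DESeq2 size factors, 0.074 by DESeq2 and -0.25 to 0.22 with a library left out, Aph1b -0.48 to 0.13 and Snw1 -0.002 to 0.62 with a library left out.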
